A study of Arabidopsis thaliana with 21 samples.

Results

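In a comparison of the Arabidopsis mutants spaQ and cop1-4 with Col-0 wild type, 55 genes differed from Col-0 in opposite directions, out of 15864 genes with a group mean of at least 5 CPM (a gene's count divided by the total of its library and multiplied by 1000000) and 33655 features in the count table. Of these 55, 53 were higher in spaQ and lower in cop1-4, and 2 were lower in spaQ and higher in cop1-4. A gene was a member when d, the log2 ratio of (mean CPM + 1) in a mutant to (mean CPM + 1) in Col-0, was at least 0.7 in one mutant and at most -0.7 in the other. The share of genes that met this rule was 0.347%. Among the 4489 genes past the limit in both mutants, 2954 were lower in both, 1480 were higher in both, and 1.23% were of the opposite kind. The members were chosen by the CPM values of Col-0, cop1-4 and spaQ, so these values are given as a description without a test. The members were tested only in the phyB-GFP lines, which the rule did not use, and in the mutants tests are given only for genes that are no members.

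The seedlings were 3 days old and dark-grown in all groups, had received far-red light (10 µmol per square metre and second) after germination was induced, and were then kept in darkness or given 1 h of red light. The red light is given as 8 µmol in the labels and as another value in the methods. Col-0, cop1-4 and spaQ were all sampled after red light, and the phyB-GFP lines, FL and ΔC, were sampled in darkness and after red light, with 3 libraries in each of the 7 groups. cop1-4 is a weak allele of COP1, and spaQ is mutated in SPA1, SPA2, SPA3 and SPA4. phyB-GFP FL and phyB-GFP ΔC are transgenic lines that carry full-length phyB or phyB without its C-terminal end, fused to GFP, in the phyA-211 phyB-9 background, so all their libraries lack functional native phyA and phyB. The promoter of the transgenes is not given in the sources used here, and the labels do not say which transgenic line, or how many, gave the libraries. Nothing in the labels says that the 3 libraries of a group came from separate cultures, so p-values measure only the spread between these libraries, which may be technical.

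COP1 and the SPA proteins form an E3 ubiquitin ligase that marks light-signalling transcription factors such as HY5 for degradation in darkness, and the lack of either lets seedlings develop in the dark as if in light. Seed storage proteins, oil body proteins and LEA (late embryogenesis abundant) proteins accumulate in the maturing embryo under control of abscisic acid and of B3-type transcription factors, and their transcripts fade after germination. Flavonols are light-induced pigments that absorb ultraviolet light, and their first enzymes are encoded by well-known targets of HY5.

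In the files, COP1 itself was at 75.6 ± 1.61 CPM in Col-0 and 36.6 ± 1.65 CPM in cop1-4 (SD, n = 3), and SPA1 at 344 ± 6.59 CPM in Col-0 against 37.3 ± 2.21 CPM in spaQ. SPA3 was at 166 ± 4.46 against 22.9 ± 1.4 CPM, whereas SPA2 was at 51.7 ± 3.47 against 46.7 ± 3.25 CPM and SPA4 at 57.9 ± 1.38 against 61.3 ± 2.53 CPM, so the counts of SPA2 and SPA4 did not mark the mutant. PHYB was at 148 ± 4.50 CPM in Col-0 and had group means of 1198 to 1408 CPM in the phyB-GFP lines, so these lines were not near the Col-0 level. Libraries held 15678019 to 29523833 counts, and the detection floor of 3 counts corresponds to 0.102 to 0.191 CPM, which covers counting error only. The summed level of 9 seed reserve markers ranged from 232 to 458 CPM in Col-0, from 2.31 to 132 CPM in cop1-4 and from 998 to 1860 CPM in spaQ. 4 of these 9 markers are members, and 1 marker had a cop1-4 mean under the floor. Most of the spaQ sum came from the members CRA1 (514 to 981 CPM there) and CRU3 (412 to 769 CPM). The rule used these levels, so the sum is no separate measure of seed tissue. The sum of 5 root hair and root epidermis markers ranged from 31.5 to 35.3 CPM in Col-0, 54.0 to 69.5 CPM in cop1-4 and 94.8 to 115 CPM in spaQ, and that of 5 stomatal lineage markers from 24.2 to 26.9, 50.2 to 52.7 and 38.1 to 39.6 CPM. The part of tissue or developmental stage in the members' levels was not tested, and in these bulk samples fewer cells of a type and less RNA per cell cannot be told apart.

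By the known roles of their products, 4 members encode seed storage proteins, 5 encode oil body proteins, 15 encode LEA proteins or dehydrins, 4 act in flavonol synthesis and 27 have other or unknown roles. The grouping was made after the members were known. The bases just upstream of the start of 7 of these genes are printed because the members differ in which sequence motifs they carry there. They are read from the TAIR10.1 genome, 5′ to 3′ on the strand of the gene, and the capitals mark each G-box (CACGTG) and each RY motif (CATGCA, or its reverse complement TGCATG). The G-box is bound by bZIP proteins such as HY5 and ABI5 and by bHLH proteins such as the PIFs, and the RY motif by B3 proteins of the maturing seed.
CRA1: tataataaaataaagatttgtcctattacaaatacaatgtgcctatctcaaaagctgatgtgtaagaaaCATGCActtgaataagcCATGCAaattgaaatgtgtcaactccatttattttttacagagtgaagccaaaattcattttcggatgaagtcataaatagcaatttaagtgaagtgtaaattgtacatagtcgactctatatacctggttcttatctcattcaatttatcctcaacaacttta
CRU3: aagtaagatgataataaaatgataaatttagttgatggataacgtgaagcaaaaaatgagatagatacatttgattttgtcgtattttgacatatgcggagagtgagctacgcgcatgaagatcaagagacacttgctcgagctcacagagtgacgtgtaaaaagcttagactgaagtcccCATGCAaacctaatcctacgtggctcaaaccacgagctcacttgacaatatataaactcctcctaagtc
OLEO1: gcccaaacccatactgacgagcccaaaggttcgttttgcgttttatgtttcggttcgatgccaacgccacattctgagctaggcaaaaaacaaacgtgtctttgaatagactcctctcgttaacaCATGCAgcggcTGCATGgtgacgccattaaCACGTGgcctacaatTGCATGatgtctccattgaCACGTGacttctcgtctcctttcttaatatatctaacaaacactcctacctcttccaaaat
GEA6: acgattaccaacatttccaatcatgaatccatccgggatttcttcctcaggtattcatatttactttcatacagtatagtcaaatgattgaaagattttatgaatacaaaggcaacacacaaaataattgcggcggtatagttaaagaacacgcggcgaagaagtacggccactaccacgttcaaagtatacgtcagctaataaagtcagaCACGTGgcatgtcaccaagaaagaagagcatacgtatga
TT4: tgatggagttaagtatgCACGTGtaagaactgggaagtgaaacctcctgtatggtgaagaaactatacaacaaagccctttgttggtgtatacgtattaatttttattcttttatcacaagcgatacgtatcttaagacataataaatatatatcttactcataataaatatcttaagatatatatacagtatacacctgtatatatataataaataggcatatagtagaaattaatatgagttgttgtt
FLS1: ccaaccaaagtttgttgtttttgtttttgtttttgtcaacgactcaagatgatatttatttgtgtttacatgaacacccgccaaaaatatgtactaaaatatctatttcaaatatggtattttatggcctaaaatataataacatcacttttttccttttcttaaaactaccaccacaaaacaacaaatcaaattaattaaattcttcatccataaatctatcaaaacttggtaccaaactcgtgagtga
AT1G68250: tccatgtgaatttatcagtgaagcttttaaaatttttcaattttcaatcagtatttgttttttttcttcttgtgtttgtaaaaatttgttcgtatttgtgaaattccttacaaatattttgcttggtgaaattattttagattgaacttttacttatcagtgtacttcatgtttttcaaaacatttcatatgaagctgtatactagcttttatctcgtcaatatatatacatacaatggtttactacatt
CRA1 (chr5:17758337-17758586, minus strand), CRU3 (chr4:14087306-14087555, plus strand), OLEO1 (chr4:12900180-12900429, plus strand), GEA6 (chr2:16780369-16780618, minus strand), TT4 (chr5:4488226-4488475, plus strand), FLS1 (chr5:2803583-2803832, plus strand) and AT1G68250 (chr1:25580200-25580449, minus strand) are shown. They are examples from the storage protein, oil body, LEA and flavonol members, with the gene of the largest spaQ difference, and need not match their groups. Each window is the 250 bases before the annotated start and overlaps no other annotated gene. OLEO1 carried 2 G-boxes and 3 RY motifs, CRA1 2 RY motifs, CRU3 1 RY motif, GEA6 1 G-box and TT4 1 G-box. FLS1 and AT1G68250 held neither motif in this window. Over the groups, a G-box was found for 2 of 4 storage protein, 1 of 5 oil body, 9 of 15 LEA and 2 of 4 flavonol members.

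**Figure D1:**
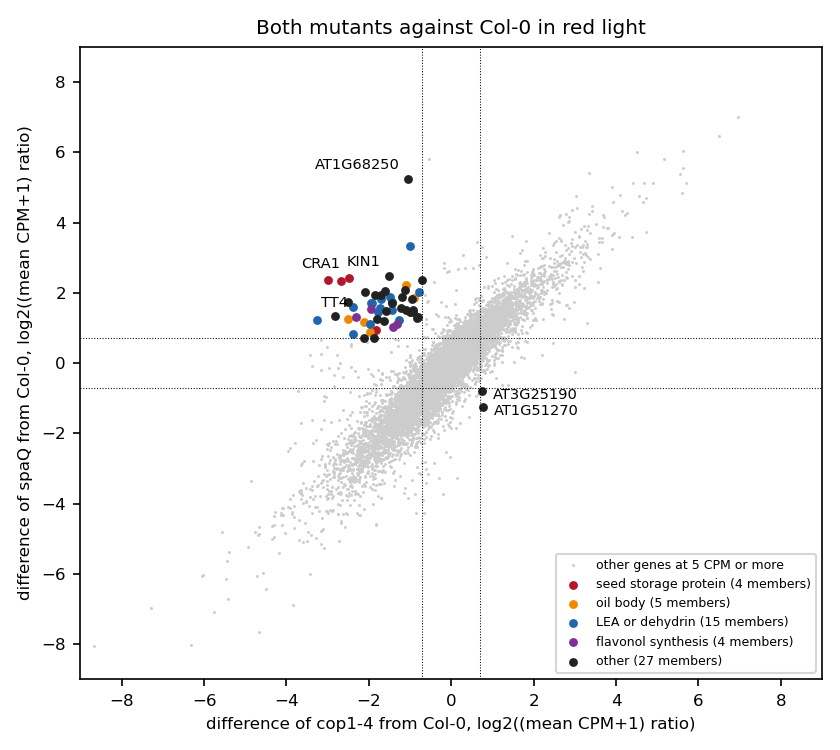
Difference d of cop1-4 (x axis) and of spaQ (y axis) from Col-0 for the 15864 genes with a group mean of at least 5 CPM, on the log2 scale of mean CPM + 1. Dotted lines mark 0.7 and -0.7, coloured points are the 55 members by role, and most grey points lie along the diagonal, whereas 53 members sit in the upper left corner and 2 in the lower right.

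The 3 large seed storage members stood about 5-fold above Col-0 in spaQ and far below it in most cop1-4 libraries. CRA1, which encodes the cruciferin (12S globulin) CRA1, was at 111, 196 and 94.6 CPM in the Col-0 libraries, at 514, 653 and 981 CPM in spaQ, and at 1.41, 67.0 and 0.659 CPM in cop1-4. CRU3, which encodes another cruciferin, was at 96.1, 153 and 76.4 CPM in Col-0, at 412, 470 and 769 CPM in spaQ, and at 1.04, 46.7 and 0.494 CPM in cop1-4. For both genes no spaQ library overlapped a Col-0 library and no cop1-4 library reached the lowest Col-0 library, but cop1-4 replicate 2 lay far above the other cop1-4 libraries. SESA5, which encodes a 2S albumin, was at 28.0, 45.4 and 31.6 CPM in Col-0, at 144, 177 and 234 CPM in spaQ, and at 0.734, 9.53 and 0.329 CPM in cop1-4. AT2G18540, which encodes a cupin-domain protein, was at 3.73, 5.82 and 2.46 CPM in Col-0, at 7.72, 7.15 and 11.1 CPM in spaQ and at 0.428, 0.714 and 0.110 CPM in cop1-4. The fitted log2 fold changes in spaQ, from edgeR with TMM normalization, were 2.67 ± 0.47 for CRA1, 2.59 ± 0.42 for CRU3 and 2.65 ± 0.23 for SESA5 (± SE), and those in cop1-4 were -2.28 ± 0.54, -2.49 ± 0.51 and -3.02 ± 0.37.

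The other storage protein genes of the seed reserve list did not share the spaQ side of this pattern. Without the 4 members CRA1, CRU3, OLEO1 and OLEO2, 5 of the 5 remaining genes were called lower in cop1-4 against Col-0 (edgeR adjusted p under 0.05 and over 2-fold, a call that 13.1% of all 20396 genes tested met), with a median log2 fold change of -3.57 beside 0.00344 for all genes. In spaQ, 0 of these 5 were called higher (15% of all genes) and 2 lower (17.5% of all genes). The cruciferin gene CRU2 had a d of -0.95 in spaQ and -3.09 in cop1-4, and the albumin genes SESA1, SESA2, SESA3 and SESA4 had d values of -1.59, -0.14, -0.67 and -1.57 in spaQ and of -2.53, -2.76, -2.85 and -1.68 in cop1-4. SESA1 and SESA4 were the 2 genes called lower in spaQ (log2 fold changes of -1.71 and -3.17, edgeR adjusted p of 7.04e-06 and 1.84e-08). At an adjusted p under 0.05 without a fold limit, CRU2 and SESA3 were also lower there (adjusted p of 0.00823 and 0.0309). Albumin and cruciferin genes are families of similar sequence, and how the counting treated reads that fit several of them is not given in the sources used here.

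The 5 oil body members were all among the 53 of 55 members that the rule placed higher in spaQ and lower in cop1-4. Oleosins coat the lipid droplets of the seed and keep them from fusing. OLEO1 was at 9.12, 18.8 and 9.54 CPM in Col-0, at 25.1, 27.2 and 40.6 CPM in spaQ and at 0.306, 3.52 and 0.329 CPM in cop1-4. OLEO4 was at 1.65, 3.27 and 2.0003 CPM in Col-0, at 11.6, 13.0 and 18.9 CPM in spaQ and at 0.428, 0.867 and 0.329 CPM in cop1-4, and it had the largest d in spaQ among the oil body members (2.23). The remaining oil body members were OLEO2 (d of 1.18 in spaQ and -2.12 in cop1-4), the oleosin gene AT3G01570 (1.85 and -0.90) and AT1G05510, annotated with a DUF1264 domain (0.88 and -1.98). AT5G45690, a member with the same DUF1264 annotation (1.49 and -1.59), was counted under other roles, so the border of this group is uncertain. For AT3G01570, cop1-4 replicate 2 (2.45 CPM) was above Col-0 replicate 3 (2.25 CPM), so these groups overlapped. Of 7 genes with oleosin in the RefSeq product name that reached 5 CPM, 4 were members, 2 were higher in both mutants and 1 was lower in both.

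The LEA and dehydrin members, whose products protect proteins and membranes during drying, made up the largest group, with a median d of 1.59 in spaQ (range 0.83 to 3.32) and of -1.73 in cop1-4 (range -3.25 to -0.79). RAB18, a dehydrin induced by abscisic acid, was at 27.3, 44.5 and 27.0 CPM in Col-0, at 77.7, 87.2 and 112 CPM in spaQ and at 5.44, 15.7 and 5.38 CPM in cop1-4. M17 had the lowest d in cop1-4, with 0.245, 5.86 and 0.165 CPM there against 21.7, 41.0 and 22.5 CPM in Col-0 and 55.8, 59.3 and 89.1 CPM in spaQ. ATECP31 had the highest d in spaQ, with 21.2, 22.8 and 29.9 CPM there, 0.708, 2.07 and 1.92 CPM in Col-0 and 0, 0.867 and 0 CPM in cop1-4. In these 3 genes the spaQ libraries lay above every Col-0 library, and for ATECP31 cop1-4 replicate 2 was above Col-0 replicate 1.

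The group 1 LEA genes EM1 and GEA6, among the last genes switched on in the maturing embryo, were at 13.0 to 20.4 CPM and 14.0 to 19.7 CPM in spaQ. EM1 was at 2.74, 6.25 and 2.75 CPM in Col-0, and at 0.0611, 1.48 and 0 CPM in cop1-4. GEA6 was at 4.11, 6.15 and 4.17 CPM in Col-0, and at 0.122, 2.04 and 0.110 CPM in cop1-4. XERO1 and LEA, both annotated as dehydrins, had d values of 1.22 and 1.88 in spaQ and of -1.26 and -1.48 in cop1-4. Among the other LEA members, AT3G17520, AT2G42560, AT5G44310, AT5G66780, AT1G72100, AT3G53040 and AT4G21020 had d values from 0.83 to 1.74 in spaQ. ECP63 had the d nearest to 0 in cop1-4 among the LEA members (-0.79), and its cop1-4 replicate 2 (2.14 CPM) lay above Col-0 replicates 1 and 3 (2.03 and 1.71 CPM). Of 38 genes with LEA or late embryogenesis in the RefSeq product name that reached 5 CPM, 9 were members, 11 were lower in both mutants and 4 were higher in both, so the opposite pattern was one of several in this family.

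The 24 storage, oil body and LEA members shared their highest library in some groups. In Col-0, replicate 2 was the highest of the 3 libraries for 24 of 24 genes, in cop1-4 replicate 2 for 24 of 24, in spaQ replicate 3 for 24 of 24 and in phyB-GFP ΔC in darkness replicate 1 for 24 of 24. Over all genes at 5 CPM or more, these libraries were the highest for 36.3%, 38.8%, 34.3% and 32.8% of genes. The remaining groups were less uniform. In phyB-GFP FL, replicate 1 was the highest for 21 of 24 genes in darkness and replicate 2 for 17 of 24 in red light, and in phyB-GFP ΔC after red light replicate 1 was the highest for 13 genes and replicate 2 for 11. The summed level of the 24 genes was 364.5, 627.4 and 329.9 CPM in the Col-0 libraries, 14.0, 180.8 and 12.4 CPM in cop1-4, and 1476, 1749 and 2613 CPM in spaQ. The group sums did not overlap, although cop1-4 replicate 2 lay far above the other cop1-4 libraries. With cop1-4 replicate 2 left out, 57 genes met the rule and 54 of the 55 members were among them. With Col-0 replicate 2, cop1-4 replicate 2 and spaQ replicate 3 all left out, a choice made after seeing the data, 55 genes met the rule and 52 of them were members, including all 24 of these genes. Whether the libraries differed in stage, in ungerminated seeds or in handling was not tested.

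**Figure D2:**
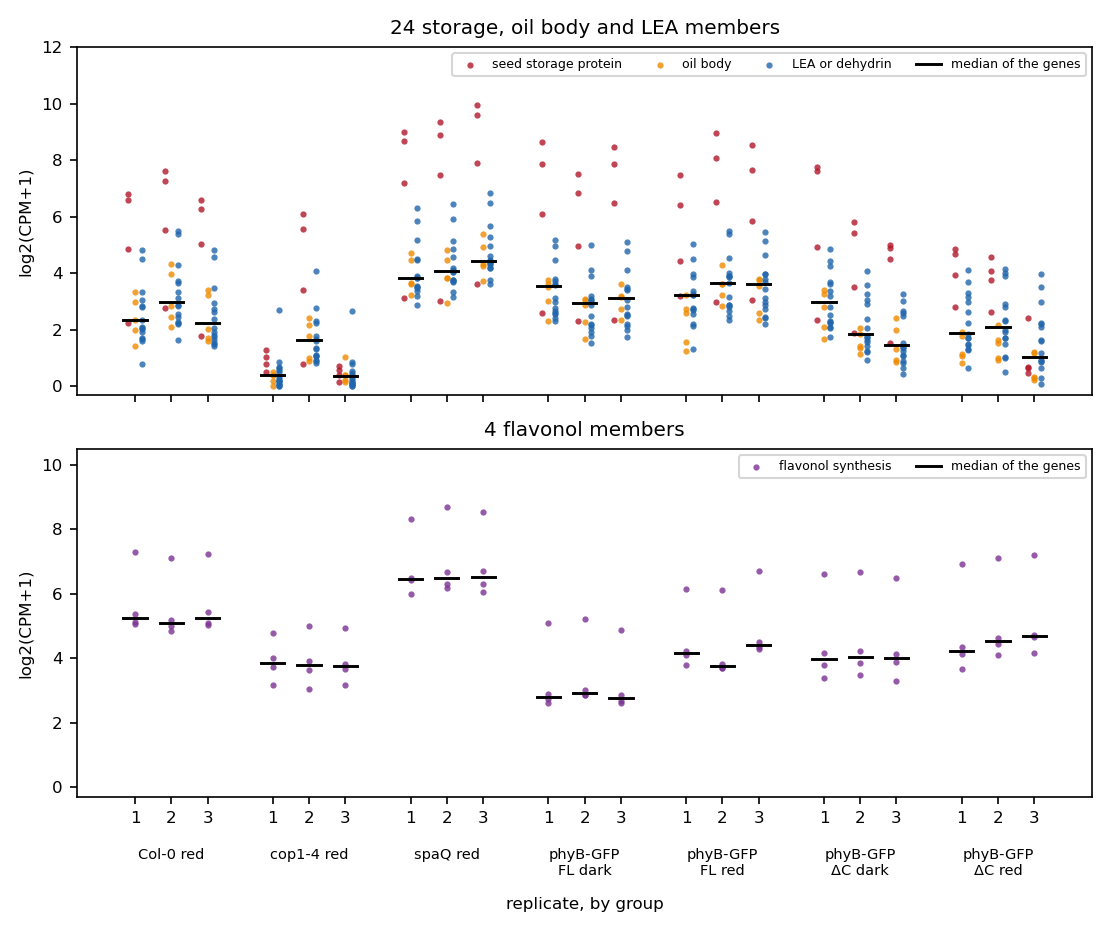
Level of each storage, oil body and LEA member (top, 24 genes) and each flavonol member (bottom, 4 genes) in all 21 libraries, as log2(CPM + 1), with replicates numbered within each group. Bars mark the median over the genes, which for the upper set is 0.306, 2.09 and 0.275 CPM in the cop1-4 libraries before the log scale, while the flavonol medians of a group's libraries lie close together.

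For all 4 flavonol members the libraries of the 3 genotypes were apart, as for 51 of the 55 members and 3.06% of all 15864 genes. The rule used these libraries, so this is a description. TT4 encodes chalcone synthase, the first enzyme of the pathway, and was at 155, 138 and 149 CPM in Col-0, at 316, 411 and 369 CPM in spaQ and at 26.4, 31.3 and 29.5 CPM in cop1-4. FLS1, the flavonol synthase at the end of the branch, was at 34.2, 31.0 and 33.0 CPM in Col-0, at 89.0, 101 and 104 CPM in spaQ and at 7.95, 7.24 and 8.02 CPM in cop1-4. No libraries of different genotypes overlapped for either gene, and replicate 2 of cop1-4 was not set apart. TT5, which encodes chalcone isomerase, had means of 30.5, 66.8 and 11.7 CPM in Col-0, spaQ and cop1-4. CHIL, a related protein without known catalytic activity that aids chalcone synthase, had means of 39.2, 80.1 and 14.1 CPM. The fitted log2 fold changes of TT4 were 1.56 ± 0.07 in spaQ and -2.14 ± 0.08 in cop1-4 (± SE), and those of FLS1 were 1.83 ± 0.06 and -1.89 ± 0.08.

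Other genes of the flavonoid list did not all follow. Of the 10 listed genes that are no members, 7 were called higher and 2 lower in spaQ (15.0% and 17.5% of all genes). In cop1-4, 1 was called higher and 4 lower (10.7% and 13.1% of all genes). The calls were made with edgeR as for the seed genes. F3primeH, the flavonoid 3′-hydroxylase, came close to the rule with a d of 0.65 in spaQ and -1.28 in cop1-4. F3H was lower in both mutants, with means of 4.12 CPM in Col-0, 1.71 CPM in spaQ and 0.315 CPM in cop1-4. Its d was -0.92 in spaQ and -1.96 in cop1-4. MYB12, an activator of flavonol genes, was at 2.05 CPM in Col-0, 29.3 CPM in spaQ and 4.14 CPM in cop1-4 (group means), with log2 fold changes of 4.08 ± 0.11 (edgeR adjusted p = 2.71e-21) and 1.22 ± 0.16 (edgeR adjusted p = 2.2e-07), so it was higher in both mutants. TT8, DFR and LDOX, which belong to the anthocyanin branch, had means of 0.260, 0.171 and 0.226 CPM in Col-0, near the detection floor, and of 7.26, 3.67 and 4.56 CPM in spaQ, where all 3 were called higher (edgeR adjusted p of 1.66e-16, 1.21e-11 and 1.49e-14). Their cop1-4 means of 0.110, 0.188 and 0.0353 CPM were near or under the floor.

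Among the members with other roles, AT1G68250, an uncharacterized protein, differed most in spaQ. It was at 7.32, 13.7 and 8.04 CPM in Col-0, at 351, 365 and 486 CPM in spaQ and at 0.428, 11.98 and 0.0549 CPM in cop1-4. The spaQ mean of 401 CPM stood against 9.70 CPM in Col-0, and cop1-4 replicate 2 overlapped Col-0. KIN1, a cold- and abscisic acid-induced gene, was at 8.22, 8.70 and 7.42 CPM in Col-0, at 52.1, 53.9 and 43.1 CPM in spaQ and at 1.59, 2.29 and 2.64 CPM in cop1-4. Its neighbour KIN2, with which it is nearly identical in sequence, had a d of -0.16 in spaQ and -2.01 in cop1-4, and how reads were split between the pair is uncertain. Of the 7 other cold and dehydration genes tested, 6 were called lower and 0 higher in spaQ (17.5% and 15.0% of all genes). In cop1-4, 7 were called lower (13.1% of all genes, edgeR). The gene without a call in spaQ was KIN2 (log2 fold change of 0.09, adjusted p = 0.189).

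AT3G43850, an uncharacterized protein, was nearly absent from cop1-4, with at most 1 count in any cop1-4 library, against 6.09, 5.43 and 6.92 CPM in Col-0 and 19.6, 15.6 and 16.5 CPM in spaQ. Set against a floor of 3 counts in each library, the cop1-4 mean was at least 36.8-fold lower than Col-0. QQS, a gene known for its effect on leaf starch, was at 7.79, 7.31 and 7.21 CPM in Col-0, at 12.8, 12.9 and 12.9 CPM in spaQ and at 0.856, 0.816 and 1.21 CPM in cop1-4. The noncoding RNA AT1G67105 was at 10.3, 10.48 and 10.2 CPM in Col-0, at 29.9, 23.0 and 28.5 CPM in spaQ and at 6.05, 5.81 and 4.61 CPM in cop1-4. These 3 genes were steady among replicates, with no overlap between genotypes. AT1G54870 (a Rossmann-fold protein), AT1G04560 (AWPM-19-like), AT5G35660 (glycine-rich), AT5G22470 (poly ADP-ribose polymerase 3) and AT3G54940 (a papain-type protease) had d values of 1.73 to 2.06 in spaQ and of -2.51 to -1.61 in cop1-4, and in all 5 cop1-4 replicate 2 was the highest cop1-4 library.

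The reverse pattern was limited to 2 genes. The fitted log2 fold changes of AT1G51270 were -2.08 ± 0.24 in spaQ and 1.19 ± 0.15 in cop1-4 (± SE). Those of AT3G25190 were -0.63 ± 0.10 and 0.98 ± 0.09. AT1G51270, annotated as vesicle-associated protein 1-4, was at 2.17, 2.74 and 2.83 CPM in Col-0, at 0.534, 0.450 and 0.547 CPM in spaQ and at 4.95, 5.45 and 5.05 CPM in cop1-4. AT3G25190, a vacuolar iron transporter family protein, was at 11.3, 11.4 and 13.4 CPM in Col-0, at 6.82, 6.205 and 6.66 CPM in spaQ and at 23.0, 20.3 and 19.3 CPM in cop1-4. The groups did not overlap for either gene. Both were lost with a limit of 1 in place of 0.7, and AT3G25190 was also lost with TMM scaling.

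Libraries of the 3 genotypes were fully apart, with spaQ and cop1-4 on opposite sides of Col-0, for 51 of the 55 members, beside 3.06% of all 15864 genes. The rule used these libraries, so nothing is read from that count. The 4 members with overlap were AT1G68250, ATECP31, AT3G01570 and ECP63, in each of which all spaQ libraries lay above Col-0 and cop1-4 replicate 2 overlapped it. Just inside the limit lay AT5G01300 (d of 0.704 in spaQ and -1.87 in cop1-4) and AT5G17040 (2.35 and -0.718). Just outside lay RAP2.6 (0.690 and -1.37) and AT1G14960 (-0.876 and 0.658), and 6 further genes passed both limits of d with all group means under 5 CPM. Over all genes at 5 CPM or more, the median d was -0.21 in spaQ and -0.18 in cop1-4. Scaling by TMM moved these medians to 0.038 and 0.017 and gave 60 members, 58 of them higher in spaQ, of which 50 were shared with the 55. The member groups of storage, oil body and flavonol genes were complete under TMM, and 14 of 15 LEA members remained.

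In the phyB-GFP lines, which the rule did not use, red light raised the flavonol members in phyB-GFP FL. Of the 24 storage, oil body and LEA members, 13 were called lower in phyB-GFP ΔC than in phyB-GFP FL after red light. The share of all genes called lower was 1.08%. In darkness 0 of 24 were called lower, beside 0.601% of all genes. Yet the dark values of 4 of 4 storage, 5 of 5 oil body and 14 of 15 LEA members were below 0. Without phyB-GFP ΔC dark replicate 1, 21 of the 55 members were called in darkness. Whether the difference between the lines depended on light was not shown by the interaction test. All 55 were tested in a fit of 20459 genes over the 12 libraries of these lines (edgeR quasi-likelihood test, adjusted p under 0.05 and over 1.5-fold). In phyB-GFP FL, red light raised 6 members, 10.9% of the 55, where 3.28% of all genes rose, and lowered 1 (1.72% of all genes fell). The 4 flavonol members were among the 6. TT4 went from 33.0, 36.0 and 28.2 CPM in darkness to 70.2, 68.5 and 104 CPM after red light, a log2 fold change of 1.33 ± 0.15 (edgeR adjusted p = 4.601e-05). FLS1 rose by 1.23 ± 0.16, CHIL by 1.63 ± 0.21 and TT5 by 1.395 ± 0.18 on the log2 scale (edgeR adjusted p of 9.661e-05, 9.715e-05 and 0.0001143). Each red light library was above each dark library for TT4. KIN1 also rose (1.22 ± 0.25, edgeR adjusted p = 0.006041), as did AT2G18540 (0.79 ± 0.22, edgeR adjusted p = 0.03632), a call that was lost in 6 of 19 alternatives, 5 of which left out a single library. AT3G43850 went the other way, from 14.3, 14.4 and 12.2 CPM in darkness to 8.28, 5.17 and 6.69 CPM in red light, and fell by 1.03 ± 0.15 on the log2 scale (edgeR adjusted p = 0.0004529).

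Apart from AT2G18540, no storage, oil body or LEA member was called in phyB-GFP FL. CRA1 was at 399, 181 and 351 CPM in darkness and at 178, 497 and 369 CPM in red light, so the groups overlapped widely. Over the 24 genes, the median fitted value was 0.31 on the log2 scale.

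In phyB-GFP ΔC, red light lowered AT3G43850 by 0.85 ± 0.15 (edgeR adjusted p = 0.002776) and raised TT5 by 0.67 ± 0.16 on the log2 scale (edgeR adjusted p = 0.02852), so that 2 members were called in all beside 2.88% of all genes (1.3% fell and 1.59% rose). The TT5 call was lost in 6 of 20 alternatives, among them those without phyB-GFP ΔC dark replicate 1, 2 or 3 and red replicate 2 or 3. TT4, FLS1 and CHIL had log2 fold changes of 0.49, 0.44 and 0.63 (adjusted p of 0.07624, 0.09248 and 0.06766). The difference between the lines in the response to red light, tested as an interaction, was called for 0 of the 55 members and for 0.103% of all genes (edgeR adjusted p under 0.05). At an unadjusted p under 0.05 it numbered 17 members (30.9%), all with the lower value in phyB-GFP ΔC, beside 925 of all 20459 genes (4.52%). At that p, phyB-GFP ΔC against FL numbered 56.4% of members in darkness (13.9% of all genes) and 80.0% in red light (16.5%). Of the 24 storage, oil body and LEA members, 24 were highest in ΔC dark replicate 1 and 22 lowest in ΔC red replicate 3. Members are thus not independent, and nothing is read from these unadjusted counts. For the interaction, DESeq2 called 1, TT4, and one edgeR fit of all 21 libraries called TT4 and FLS1. The edgeR interaction terms of TT4, FLS1 and CHIL were -0.83 ± 0.21, -0.79 ± 0.21 and -1.01 ± 0.27 (adjusted p of 0.3128, 0.3384 and 0.4087), so the edgeR test did not show a difference between the lines in the response of these genes.

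**Figure D3:**
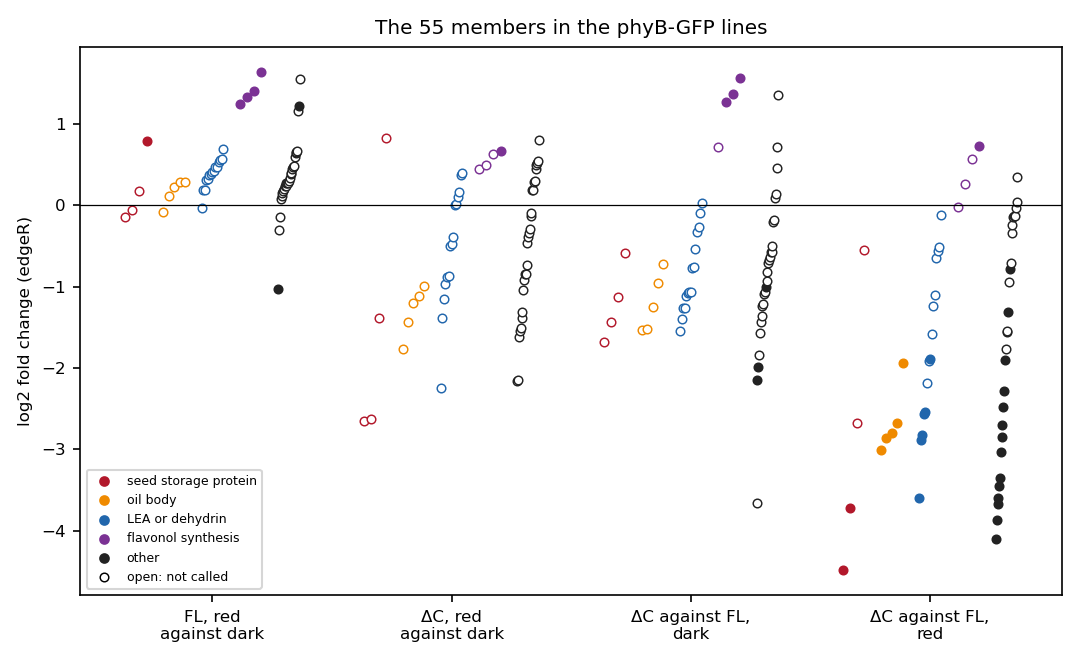
Log2 fold changes of the 55 members in 4 comparisons within and between the phyB-GFP lines, from the edgeR fit, with filled points for members called at an adjusted p under 0.05 and over 1.5-fold and open points for the rest. The flavonol members lie above 0 except 1 (TT5, -0.02) in the comparison of the lines in red light, and most storage, oil body and LEA members, called or not, lie below 0 wherever phyB-GFP ΔC was set against phyB-GFP FL.

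With phyB-GFP ΔC set against phyB-GFP FL in red light, 27 of 55 members were called lower (49.1%, where 1.08% of all genes were lower) and 1 was called higher (0.596% of all genes), in all 28 members beside 1.67% of all genes. The median log2 fold change was -1.89 over the 55 members and -0.00674 over all genes. Of the 27, 2 encode storage proteins, 5 oil body proteins and 6 LEA proteins or dehydrins, and 14 have other roles. CRA1 was at 178, 497 and 369 CPM in phyB-GFP FL and at 24.8, 22.8 and 0.543 CPM in phyB-GFP ΔC (log2 fold change of -4.48 ± 0.93, edgeR adjusted p = 0.01975, or 0.08174 without phyB-GFP ΔC red replicate 2). RAB18 was at 31.9, 44.3 and 42.7 CPM against 6.95, 6.59 and 3.63 CPM (-2.82 ± 0.43, edgeR adjusted p = 0.003172). EM1 was at 9.42, 14.0 and 14.5 CPM against 1.47, 2.76 and 0.835 CPM (-2.89 ± 0.49, edgeR adjusted p = 0.006374), and the oleosin gene AT3G01570 at 8.40, 11.1 and 12.6 CPM against 1.21, 2.07 and 1.25 CPM (-2.80 ± 0.44, edgeR adjusted p = 0.003806). The libraries of the lines did not overlap for these 4 genes.

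The noncoding RNA AT1G67105 had the smallest adjusted p of the members in both comparisons of the lines. It was at 21.3, 25.1 and 25.9 CPM in phyB-GFP FL and 4.59, 4.80 and 3.68 CPM in phyB-GFP ΔC after red light (-2.48 ± 0.16, edgeR adjusted p = 5.404e-06), and at 26.1, 21.6 and 19.5 CPM against 6.39, 4.61 and 6.13 CPM in darkness (-1.98 ± 0.15, edgeR adjusted p = 2.107e-05). Red light did not change it past the limits in either line. The lines were transformed separately, and the site of insertion and the form of phyB cannot be told apart here. AT3G05260, a Rossmann-fold protein, was at 2.96, 8.91 and 7.24 CPM against 0.510, 0.691 and 0.125 CPM in red light (-3.87 ± 0.58, edgeR adjusted p = 0.002792), and AT3G54940 at 8.40, 10.2 and 9.58 CPM against 4.401, 3.62 and 3.47 CPM (-1.32 ± 0.20, edgeR adjusted p = 0.002932). MLP31 had 0, 0 and 3 counts in the phyB-GFP ΔC libraries in red light, so no fold is given for it.

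**Figure D4:**
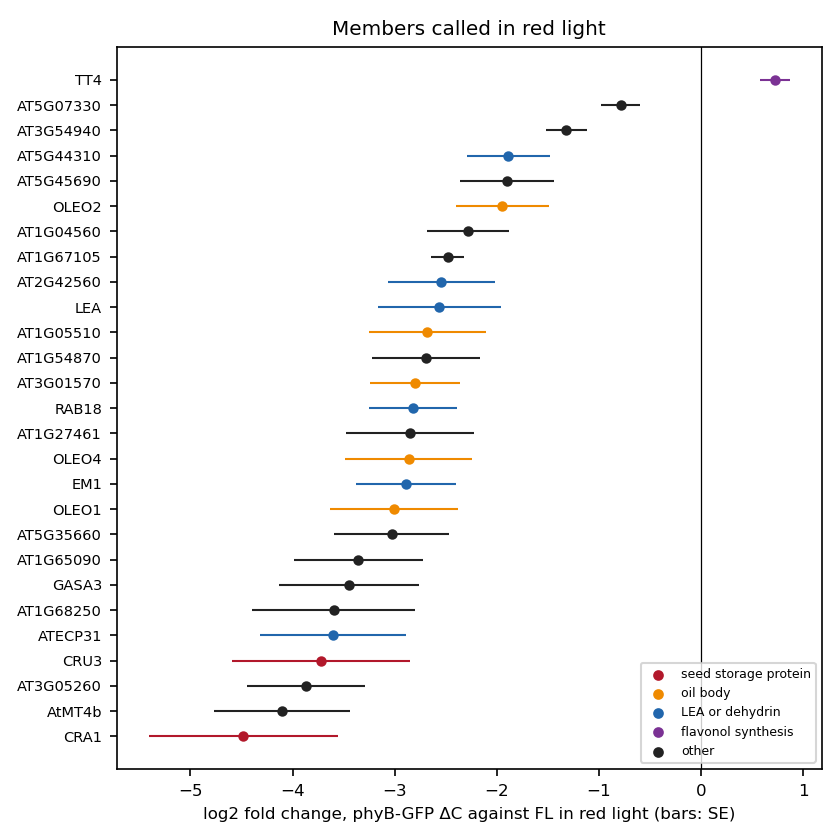
Log2 fold change, with its SE, of the members called in phyB-GFP ΔC against phyB-GFP FL in red light, without MLP31, which had at most 3 counts in each phyB-GFP ΔC library. TT4 (0.72) is the one value above 0, and CRA1 (-4.48) has the lowest value.

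In darkness, 3 members were called higher in phyB-GFP ΔC (5.45%, where 0.587% of all genes were higher) and 3 lower (0.601% of all genes), in all 6 beside 1.19% of all genes. The higher ones were TT4, at 97.2, 102 and 88.0 CPM against 33.0, 36.0 and 28.2 CPM in phyB-GFP FL (1.56 ± 0.15, edgeR adjusted p = 0.0001241), FLS1 (1.36 ± 0.15, edgeR adjusted p = 0.0003467) and CHIL (1.27 ± 0.20, edgeR adjusted p = 0.006041). The lower ones were AT1G67105, AT5G07330 (-1.01 ± 0.19, edgeR adjusted p = 0.01921) and AT3G05260 (-2.15 ± 0.46, edgeR adjusted p = 0.03207). The calls of AT5G07330 and AT3G05260 were each lost without phyB-GFP FL dark replicate 1 or 3 and without phyB-GFP ΔC dark replicate 2 or 3. In red light TT4 was still higher in phyB-GFP ΔC, at 121, 137 and 146 CPM against 70.2, 68.5 and 104 CPM (0.72 ± 0.15, edgeR adjusted p = 0.01815), and FLS1 was at 0.57 ± 0.14 (edgeR adjusted p = 0.04604), under the 1.5-fold limit. The TT4 call in red light was lost in 5 of 20 alternatives (adjusted p up to 0.1185), among them those without phyB-GFP FL red replicate 1 or 2 and without phyB-GFP ΔC red replicate 2 or 3. TT5 was not called in either light condition, with values of 0.71 in darkness (edgeR adjusted p = 0.06499) and -0.02 in red light (edgeR adjusted p = 0.9718).

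The count of members called between the lines changed with single libraries. The summed level of the 24 storage, oil body and LEA members was 461.0, 1135 and 878.3 CPM in phyB-GFP FL and 155.7, 146.4 and 60.6 CPM in phyB-GFP ΔC after red light, and 928.6, 474.9 and 858.2 CPM against 607.5, 190.6 and 135.2 CPM in darkness. In red light the libraries of the lines did not overlap, and in darkness phyB-GFP ΔC replicate 1 did. Without phyB-GFP ΔC red replicate 3, 10 members were called in red light, without replicate 2 of that group 9, and without phyB-GFP FL red replicate 2, 15. Over the 24 genes, the median fitted value on the log2 scale was -2.37 with all libraries and -1.95, -2.57 and -2.16 in these fits, and all 24 values stayed below 0 in each. In darkness, 21 members were called without phyB-GFP ΔC dark replicate 1. With that library and phyB-GFP ΔC red replicate 3 both left out, a choice made after seeing the data, 26 members were called in darkness and 20 in red light, so the order of the counts turned. The 9 seed reserve markers, 4 of them members, summed to 288 to 830 CPM in phyB-GFP FL and 4.14 to 68.8 CPM in phyB-GFP ΔC after red light. Most of the phyB-GFP FL sum came from CRA1 (178 to 497 CPM) and CRU3 (84.9 to 271 CPM). Of the 9, 6 were called lower, beside 1.08% of all genes. All 4 members are among these 6 and were already counted above. The part of seed or embryo tissue in this difference was not tested.

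All 55 matched a RefSeq locus, 54 are protein-coding, and they lie on all 5 chromosomes (11, 8, 14, 5 and 17 genes on chromosomes 1 to 5) with no 2 members adjacent. The median span of a member was 1418 bases, beside 2530 bases for the 15863 genes at 5 CPM or more that matched. The levels that the rule used were low for many members, with a median of 4.43 CPM in Col-0 beside 25.9 CPM for all genes at 5 CPM or more, and 32 members had a cop1-4 mean under 1 CPM. Another annotated gene overlapped 10 of the 55 members, beside 31.3% of all genes, including TT4, OLEO1, OLEO2 and RAB18, and their counts are uncertain where strand was not used in counting.

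The G-box was found in the 250 bases upstream of 27 of 55 members (49.1%), on either strand, beside 7.74% of 15862 genes at 5 CPM or more, 7.64% of the genes higher in both mutants and 8.67% of those lower in both. The HY5-type motif ACACGTG, which contains a G-box, was found in 41.8% of members and 5.18% of all genes. The shorter core ACGT, which lies within both, was found in 78.2% and 44.6%. The motif ACGTGNC, the core of many abscisic acid-responsive elements, which overlaps these, was found in 52.7% and 10.0%. The RY motif was found in 29.1% of members and 7.24% of all genes, in 5 of 5 oil body members, 3 of 4 storage protein members and 0 of 4 flavonol members. The PIF-binding motif CATGTG was found in 21.8% and 11.2%, and the evening element AAAATATCT, known from clock-controlled genes, in 3.64% (2 members) and 2.5%. The RY and ACGTGNC motifs were chosen after the members were known. Among the flavonol members, TT4 and CHIL held a G-box, and TT5 and FLS1 did not. These are matches of letters in one window and were not tested as binding sites.

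**Figure D5:**
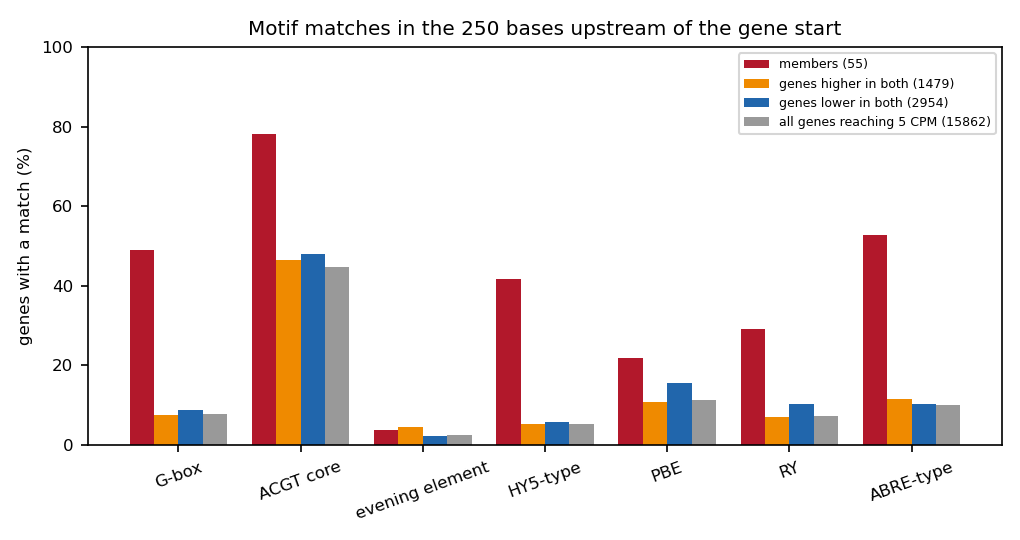
Share of genes, in percent, with at least 1 match of each motif on either strand in the 250 bases upstream of the annotated start, for the 55 members, the genes higher or lower in both mutants and all genes at 5 CPM or more. The G-box bar of the members (49.1%) stands above those of the other sets (7.64% to 8.67%).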

How the data were processed

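Per the labels and the methods, mRNA libraries of whole seedlings were sequenced on an Illumina NextSeq. The authors deposited raw counts per gene, made with HTSeq-count after alignment by TopHat and Bowtie2 to TAIR10 and not normalized, with 15678019 to 29523833 counts per library. The strand mode and the treatment of reads that fit several genes are not given in the sources used here. All 21 columns of the table matched a sample.

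CPM was computed with each column's total, and the members follow the rule in the report. The members, gene lists, roles and tests were chosen with earlier results of these data known. edgeR 4.0.16 in R 4.3.3 (TMM factors, filterByExpr, quasi-likelihood test, p-values adjusted by Benjamini-Hochberg across every gene in the fit) was fitted to 9 libraries (Col-0, cop1-4 and spaQ, 20396 genes) and to 12 libraries (phyB-GFP lines, 20459 genes). As the fits were scaled separately, fitted values were not compared across them. Only the fit of 12 libraries was tested on simulated data, and only for red light against dark in phyB-GFP FL. The simulated libraries were drawn independently, so shifts shared by many genes of a library were not covered.

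Genes were named by a rule: the 10 members per direction with the largest smaller d, members of the gene lists, the 5 with the highest mean, the 5 with the smallest adjusted p per test, members next to the limit, families of 3 or more, and the mutated genes. QQS, GEA6, AT1G05510, AT5G45690, MLP31, ATECP31, ECP63 and genes of the lists that are no members were named outside this rule, after their values were seen. Sequences and coordinates come from RefSeq TAIR10.1. The files hold no coordinates. Alternatives were DESeq2 1.42.0, other scalings, filters and limits, the replicate number as a block, one fit of 21 libraries, and leaving out each library. Counts of lists are called at an adjusted p under 0.05 and over 2-fold in the mutants.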

Additional observations from a re-analysis of the deposited data

How the results depend on the processing

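The member count of 55 stayed within 1.5 times of itself under each scaling, limit and pseudocount tried (38 to 78), and between 51 and 58 when 1 library was left out. When every same-numbered pair of libraries had to pass the limit, which uses the pairing of replicate numbers, 36 genes were left. Deviations of same-numbered libraries from their group means were correlated at -0.06 to 0.15 in Col-0, cop1-4 and spaQ. In the phyB-GFP lines the range was -0.40 to 0.28. Of 9 pairs in the first set, 1 was over 0.1 (Col-0 with cop1-4, replicate 2), and of 18 in the second, 3. Whether same-numbered libraries shared a batch or handling was not tested. With the replicate number as a block, all 55 members kept opposite signs in the mutants, and 7, 3, 0, 5 and 23 members were called for red light in phyB-GFP FL, red light in phyB-GFP ΔC, the interaction, and phyB-GFP ΔC against FL in darkness and in red light, beside 7, 2, 0, 6 and 28.

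With 1 library left out, the ranges for these 5 tests were 6 to 8, 1 to 5, 0 to 2, 4 to 21 and 9 to 32 members. For red light in phyB-GFP ΔC (2 members), DESeq2 called 6, a fit of every gene with at least 1 count 5, the fit of 21 libraries 4, and the fit without phyB-GFP ΔC dark replicate 1 and red replicate 3 called 1. The counts without phyB-GFP FL red replicate 2, FL red replicate 3, ΔC red replicate 1, ΔC red replicate 2 and ΔC red replicate 3 were 4, 5, 4, 1 and 1. For the interaction (0), DESeq2 called 1, the fit of 21 libraries 2 and the fit without phyB-GFP FL red replicate 2 called 2. For phyB-GFP ΔC against FL in darkness (6), DESeq2 called 10, the fit of every gene with at least 1 count 10, the fit of 21 libraries 11, the fit without FL red replicate 3 10, and the fit without both named ΔC libraries 26, beside 20 in red light. For red light (28), a minimum of 10 counts per gene in all libraries gave 18, with 38 members tested. Apart from that filter, and from the fits with fewer libraries, the causes of these shifts were not tested. Over the 43 called results of single members, 115 of 842 values under alternatives lost their call and 0 changed sign, and 18 of the 43 kept their call in each alternative. The most losses were those of MLP31 (12) and AT5G07330 (10) in red light.

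Precision is limited by 3 libraries per group and, for members under 1 CPM in cop1-4 or phyB-GFP ΔC, by counts near the floor.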

Other observations

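Membership was uneven across processing choices. Of the 55 members, 26 met the rule under all 19 alternatives, among them FLS1, TT4, TT5, CHIL, CRA1, CRU3, SESA5 and OLEO4, whereas AT5G17040, ECP63 and AT5G01300 met it under 10, 11 and 11.

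Among list genes that are no members, d had opposite signs in spaQ and cop1-4 for 5 of 10 flavonoid genes, 0 of 8 cold and dehydration genes and 0 of 5 seed reserve genes. Signs of small d depended on scaling, as the median d of all genes in spaQ was -0.21. In the TMM fit, KIN2 and SESA2 had small positive values in spaQ and negative values in cop1-4. COR47, a dehydrin of the cold response, had a Col-0 mean of 1348 CPM and mutant means of 473 (cop1-4) and 518 CPM (spaQ), and RD29A, a drought- and cold-induced gene, of 307, 36.9 and 55.5 CPM. Both were called lower in cop1-4 (log2 fold changes of -1.31 and -2.86, edgeR adjusted p of 2.91e-18 and 2.87e-23) and in spaQ (-1.13 and -2.22, edgeR adjusted p of 3.92e-17 and 7.13e-22). PAP1, an activator of anthocyanin genes, had a Col-0 mean of 11.3 CPM and a spaQ mean of 0.704 CPM, and was listed at 0 in cop1-4.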
